A study of Arabidopsis thaliana with 6 samples.

Results

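The genes described here encode proteins of the cytosolic small ribosomal subunit, the 40S subunit, of Arabidopsis thaliana. They form a list of 60 loci for 25 proteins, put together by the protein they encode, and a locus counted as measured where the platform annotation assigned a probe set to it alone. That was the case for 36 loci of 19 proteins, out of 13286 loci in the whole table with a probe set of their own. Of the other members, 9 lie only on 5 probe sets that the annotation assigns to several genes, and 15 have no annotated probe set and were not analysed here. Within this list, proteins S5, S6 (the phosphorylation target of S6 kinase), S15a, S16, S18 and Sa are therefore without a measured gene. Each measured locus had 1 probe set, none of the type that is shared between genes by design.

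Total RNA of 8-day-old seedlings was hybridised to 6 Affymetrix ATH1 arrays, 3 of the lib mutant and 3 of the wild type, both in the Columbia-0 background. Both genotypes were grown alike, on vertical agar plates of half-strength medium with sucrose under long days, and neither was treated. The title of the series places lib in the context of a partial shortage of isoleucine, the labels do not name the mutated gene, and the genotype was therefore not checked through its transcript. The arrays of a genotype are labelled as biological replicates, without saying how plants were pooled, so p-values measure the spread between these samples. Whether shoots were included is unclear, because whole seedlings are given as the tissue of each sample but roots in the description of the design.

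Ribosomal proteins of the 40S subunit bind 18S rRNA in a fixed order in the nucleolus and the cytosol, and the finished subunit scans the mRNA and decodes it. The subunit has a head, a body and a platform, with the mRNA channel between head and body. Plant genomes keep several paralogous genes for nearly every ribosomal protein, so that 1 protein of the ribosome can be supplied from several loci. Transcripts of these genes are abundant in growing and dividing tissue.

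Transcripts of most measured 40S genes were higher in lib, and none was called lower. All 36 measured genes had a positive log2 fold change (lib minus wild type), against 46.6% of all 22746 probe sets. Signals are MAS5 values, and the values given below for rises and falls are log2 fold changes from the limma fit over all probe sets. In that fit 25 of the 36 rose at an adjusted p under 0.05, where 10.4% of all probe sets were called higher, and 0 fell, where 10.3% were called lower. An unadjusted p under 0.05 was reached by 28 genes, all higher in lib, against 32.9% of all probe sets in either direction. On 34 of the 36 probe sets every lib array lay above every wild type array, which held for 18.0% of all probe sets, and on 0 of them every lib array lay below, which held for 20.2%. The changes were mostly moderate: the median log2 fold change was 0.55, with values from 0.17 to 1.80, while the median over all probe sets was -0.043. A rise of at least 2-fold was met by 6 genes, against 2.44% of all probe sets. Of the 19 proteins with a measured gene, 17 had at least 1 gene that rose. In these bulk samples more cells of a type and more RNA per cell cannot be told apart.

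The median deviation of the 36 genes from their own wild type means was 0.54, 0.42 and 0.67 (log2) on lib replicates 1, 2 and 3, and between -0.06 and 0.09 on the wild type arrays. The lib arrays were not equal among themselves: 24 of the 36 genes had their highest lib signal on replicate 3, and 26 had their lowest on replicate 2. In limma's array weights lib replicate 3 counted least (0.507) and lib replicate 1 most (2.41). Without lib replicate 3 the median was 0.47 and 20 genes rose. The count of 25 was 16 without lib replicate 1, and it was 14 when the error model had no intensity trend. In every one of these fits 0 genes fell.

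**Figure D1:**
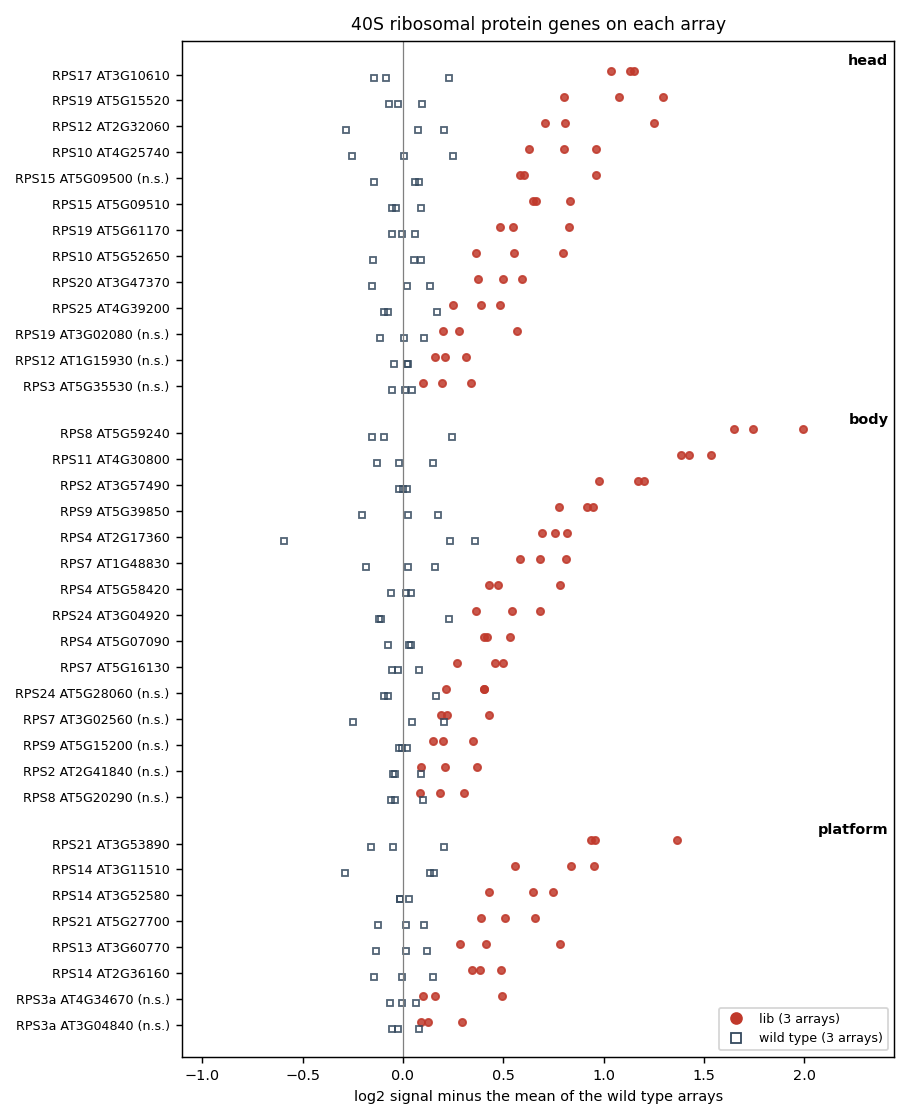
Each row is 1 of the 36 measured 40S genes, grouped by the part of the subunit, and the horizontal axis gives the log2 signal of each array minus the mean of the 3 wild type arrays. Filled circles are the 3 lib arrays and open squares the 3 wild type arrays; n.s. marks the 11 genes that did not pass. The lib arrays lie to the right of the wild type arrays on 34 rows.

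Among proteins of the head, 9 of 13 measured genes rose (median log2 fold change 0.62), and all 13 had lib arrays above the wild type arrays. AT3G10610, which encodes S17, had signals of 4110, 4175 and 3858 on the lib arrays and of 1698, 2205 and 1769 on the wild type arrays. The log2 difference was 1.11 (SE 0.11, adjusted p = 0.000369), and no lib array came near the range of the wild type. S19, whose loss in human cells stalls the maturation of 18S rRNA, is encoded by 3 measured genes. AT5G15520 had signals of 2053, 1701 and 2392 in lib and of 1042, 957 and 928 in the wild type, a log2 difference of 1.06 (SE 0.13, adjusted p = 0.000738). AT5G61170 rose by 0.62 (SE 0.12, adjusted p = 0.00588). The third S19 gene, AT3G02080, stood at 0.35 and did not pass (adjusted p = 0.0926), although its lib signals of 11415, 10794 and 13962 all exceeded the wild type signals of 9448, 10119 and 8689.

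S10 and S12 sit at the beak of the head. Both measured S10 genes rose: AT4G25740 by 0.80 (SE 0.14, adjusted p = 0.00465) and AT5G52650 by 0.57 (SE 0.13, adjusted p = 0.0156). Of the S12 genes, AT2G32060 had signals of 5991, 5590 and 8163 in lib and of 3613, 3953 and 2818 in the wild type, a log2 difference of 0.92 (SE 0.17, adjusted p = 0.00555). Its paralog AT1G15930 stood at 0.23 without passing (adjusted p = 0.159). S15, which reaches towards the decoding site, is encoded by AT5G09500 and AT5G09510 among others, and these 2 genes are direct neighbours on the chromosome in the TAIR10.1 gene table. AT5G09510 had signals of 1970, 1736 and 1756 in lib and of 1083, 1178 and 1066 in the wild type, and rose by 0.71 (SE 0.09, adjusted p = 0.00105). The dim AT5G09500, with signals of 56.9, 57.6 and 73.9 in lib and of 39.5, 34.3 and 40.1 in the wild type, had nearly the same log2 fold change, 0.72, with an SE of 0.29 and did not pass (adjusted p = 0.113). AT3G47370 (S20) rose by 0.49 (adjusted p = 0.0143) and AT4G39200 (S25, which viral internal ribosome entry sites need in yeast and human cells) by 0.37 (adjusted p = 0.0482). AT5G35530, of S3 at the mRNA entry, stood at 0.21 (adjusted p = 0.229). The call of AT4G39200 was lost in 10 of 14 alternative settings.

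The body of the subunit held both the largest rises and some of the smallest values, with 10 of 15 measured genes higher (median log2 fold change 0.53) and 13 of 15 with lib arrays above the wild type arrays. The largest rise of all 36 genes was that of AT5G59240, of S8, a protein that joins the pre-ribosome early. Its signals were 499, 419 and 393 in lib and 113, 117 and 148 in the wild type, a log2 difference of 1.80 (SE 0.16, adjusted p = 0.000223) or 3.47-fold. The other S8 gene, AT5G20290, was the brightest of all members, with 17206, 16034 and 18677 in lib and 16186, 14508 and 14727 in the wild type. Its groups overlapped, and it stood at 0.19 (SE 0.12, adjusted p = 0.311). AT4G30800, of S11, had signals of 1041, 964 and 939 in lib and of 328, 398 and 355 in the wild type. This was the largest rise after that of AT5G59240, at 1.45 (SE 0.11, adjusted p = 0.000132).

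S2 and S9 line the entry of the mRNA channel, and their bacterial counterparts help to open mRNA structure there. The S2 gene AT3G57490 had signals of 1358, 1164 and 1330 in lib and of 591, 599 and 582 in the wild type, a log2 difference of 1.12 (SE 0.09, adjusted p = 0.000164). The brighter S2 gene AT2G41840 had 11576, 10653 and 12910 in lib and 9725, 10648 and 9657 in the wild type, at 0.22 (adjusted p = 0.219), or 0.15 after quantile normalization. Its lowest lib array and its highest wild type array were nearly level. The S9 gene AT5G39850 had signals of 2128, 2176 and 1935 in lib and of 980, 1274 and 1147 in the wild type, and rose by 0.88 (SE 0.11, adjusted p = 0.000970). The brighter S9 gene AT5G15200 stood at 0.23 without passing (adjusted p = 0.194).

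S4, S7 and S24 complete the measured part of the body. All 3 genes of S4, an early-binding protein, rose: AT2G17360 by 0.76 (SE 0.21, adjusted p = 0.0348), AT5G58420 by 0.56 (SE 0.11) and AT5G07090 by 0.45 (SE 0.09, adjusted p = 0.00746). AT2G17360 had signals of 3088, 2956 and 3226 in lib and of 1213, 2148 and 2345 in the wild type, so its value leaned on wild type replicate 1. Without that array its log2 fold change was 0.46 (adjusted p = 0.0266). Of the S7 genes, AT1G48830 rose by 0.69 (SE 0.12, adjusted p = 0.00373) and AT5G16130 by 0.41 (adjusted p = 0.0235), while AT3G02560 stood at 0.28 with overlapping groups (adjusted p = 0.192). AT3G02560 was at 0.16 without wild type replicate 3 and at 0.15 after quantile normalization. Of the S24 genes, AT3G04920 rose by 0.53 (adjusted p = 0.0184) and AT5G28060 stood at 0.34 (adjusted p = 0.0557).

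On the platform, which borders the exit of the mRNA, 6 of 8 measured genes rose (median log2 fold change 0.51), and all 8 had lib arrays above the wild type arrays. S21 gave the largest change there. AT3G53890 had signals of 9364, 9237 and 12410 in lib and of 4319, 5557 and 4655 in the wild type, a log2 difference of 1.09 (SE 0.15, adjusted p = 0.00128). Its paralog AT5G27700, with 16886, 15500 and 18702 in lib and 11985, 12771 and 10885 in the wild type, rose by 0.52 (SE 0.13, adjusted p = 0.0186). The 3 genes of S14 all rose: AT3G11510 by 0.78 (SE 0.15), AT3G52580 by 0.61 (SE 0.11) and AT2G36160 by 0.41 (SE 0.11). AT3G60770 (S13) rose by 0.49 (SE 0.15, adjusted p = 0.0409). Of the 2 genes of S3a, a contact of initiation factor 3, neither passed. AT4G34670 stood at 0.25 (adjusted p = 0.220) and AT3G04840 at 0.17 (SE 0.10, adjusted p = 0.290), the smallest value of all members. Without lib replicate 3 AT4G34670 stood at 0.13 and AT3G04840 at 0.11, and AT3G04840 was at 0.099 after quantile normalization.

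The 11 genes that did not pass had adjusted p-values from 0.0557 to 0.311. Apart from the dim AT5G09500, they were at most 0.35 on the log2 scale. On 9 of the 11 the lib arrays still lay above the wild type arrays. Of the 25 calls, 13 held in all 14 alternative settings, 3 were lost in 1 setting and 9 in at least 4 settings. The 9 were AT2G17360, AT5G16130, AT3G04920, AT5G52650, AT3G47370, AT4G39200, AT5G27700, AT2G36160 and AT3G60770, and each was lost without lib replicate 1 (limma adjusted p from 0.0592 to 0.144). AT5G58420, AT2G32060 and AT3G11510 were lost with no intensity trend (adjusted p from 0.0549 to 0.0594). The 5 probe sets shared among genes, which hold the 9 further members, had values from 0.15 to 0.33. None of these 5 passed (adjusted p from 0.0635 to 0.584), and on 3 of them the lib arrays lay above the wild type arrays.

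Paralogs of 1 protein had unequal fold changes in many pairs, on a scale that 3 arrays per group can describe but not test to 0.05. The 13 proteins with more than 1 measured gene gave 21 pairs. Where a protein had 3 genes its pairs share genes, and all pairs share the same arrays, so the 21 are not independent. In 8 of the 13 proteins 1 gene passed and another did not, in 4 all measured genes passed, and in S3a none did. A call beside a missing call is no test of a difference, so the ratio of the paralogs was compared between genotypes on each array. In 18 of the 21 pairs the paralog with the dimmer probe set had the larger log2 fold change, against 78.7% of the paralog pairs of the 60S subunit, and the median difference over the pairs was 0.29. In 11 pairs the ratio of dimmer to brighter paralog on every lib array lay above that on every wild type array, and in 0 pairs the reverse was seen. Groups did not overlap, in either direction, in 56.0% of the 60S pairs. Each of these 11 gives an exact 2-sided permutation p of 0.1, the smallest that 3 arrays against 3 allow, so that no pair could reach 0.05.

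The S8 pair differed most. The log2 ratio of AT5G59240 to AT5G20290 lay 1.81, 1.66 and 1.34 above its wild type mean on the lib arrays, and between -0.25 and 0.28 on the wild type arrays, a difference of 1.60 (SE 0.21, exact permutation p = 0.1). For S2 the ratio of AT3G57490 to AT2G41840 lay 0.99, 0.89 and 0.80 above its wild type mean in lib, with a difference of 0.89 (SE 0.06, exact permutation p = 0.1). The differences between the outermost genes of S19, S12 and S9 were 0.71 (SE 0.09), 0.69 (SE 0.26) and 0.65 (SE 0.15). For S21, in which both genes rose, AT3G53890 exceeded AT5G27700 by 0.57 (SE 0.11), and the groups did not overlap. Among the S7 genes AT1G48830 exceeded AT3G02560 by 0.41 (SE 0.04). The ratio of the neighbouring S15 genes differed by 0.0035 (SE 0.20, exact permutation p = 1), which does not show that they respond alike. All 3 S4 pairs, all 3 S14 pairs and the pairs of S10 and S3a had overlapping groups.

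**Figure D2:**
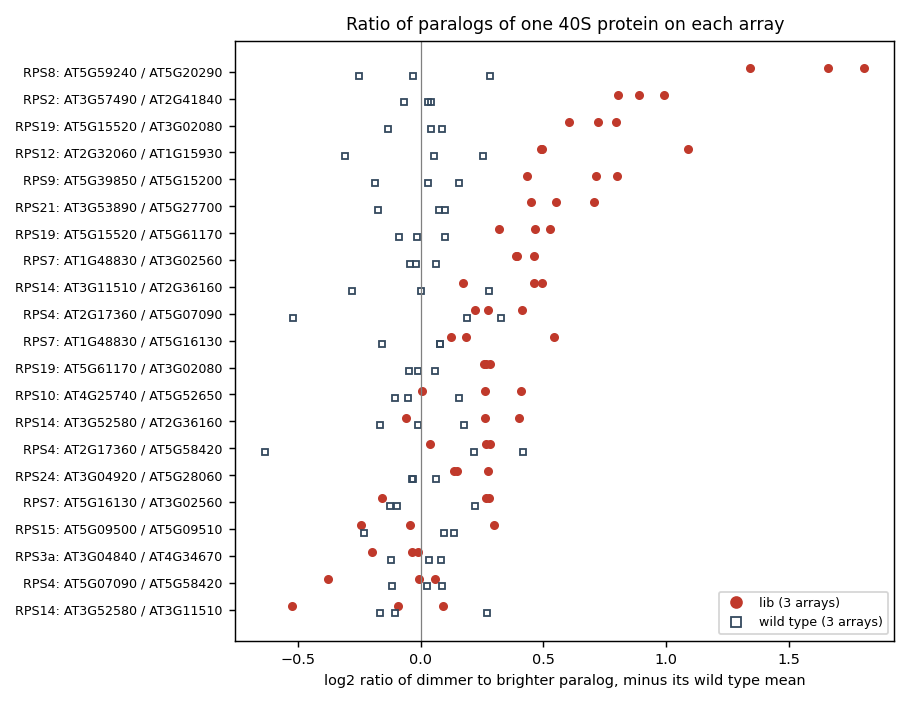
Each row is 1 of the 21 pairs of paralogs, and the horizontal axis gives the log2 ratio of the paralog with the dimmer probe set to the brighter one on each array, minus the mean of that ratio on the wild type arrays. Filled circles are the 3 lib arrays and open squares the 3 wild type arrays. In the upper rows, such as S8 and S2, the lib circles lie clear of the wild type squares; in the lowest rows they mix.

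The size of the rise moved with the brightness of the probe set. Over the 36 genes the log2 fold change and the mean log2 signal had a Pearson r of -0.69 and a Spearman rho of -0.74, a description across genes that share arrays and in part a protein. The 12 genes with a mean log2 signal under 12 had a median log2 fold change of 0.84, and 11 of them rose. The 13 genes between 12 and 13 had a median of 0.57, and the 11 genes at 13 or more a median of 0.25, of which 3 rose. Of the 11 genes that did not pass, 8 belong to this brightest class. The 621 probe sets outside the ribosomal lists with a mean log2 signal of at least 12 had a median log2 fold change of 0.03. Of them 20.0% were called higher, and 34.9% had every lib array above every wild type array. By class of mean signal their median was 0.05 from 12 to 13 (432 probe sets) and 0.04 from 13 to 14 (172 probe sets). From 14 to 16 it was -0.12, over only 17 probe sets. No such class was formed under 12. Across the 11373 probe sets above the median signal, ribosomal ones included, the Pearson r was 0.04 and the Spearman rho 0.05. The brightest member stood at 13.97 to 14.19 on the lib arrays and 13.82 to 13.98 on the wild type arrays. Brighter still were 11 to 15 probe sets on each lib array and 26 to 42 on each wild type array. Whether the brightest probe sets understate a change was not tested. A probe set's signal also depends on its probes, so dimmer does not mean a less abundant transcript.

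**Figure D3:**
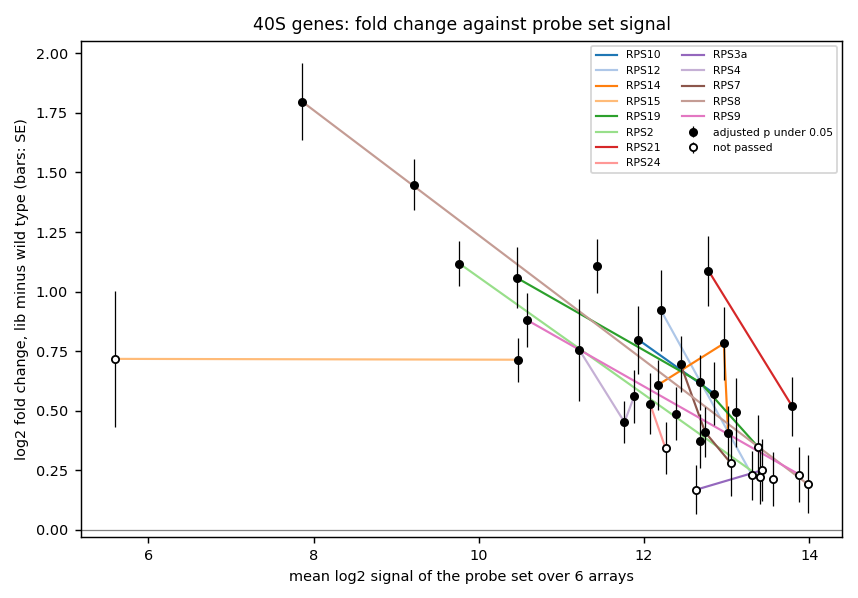
The log2 fold change of each 40S gene (vertical axis, with its SE) is plotted against the mean log2 signal of its probe set over the 6 arrays (horizontal axis). Lines join the genes of 1 protein, filled points passed and open points did not; 8 of the 11 open points lie at a mean of 13 or more, and most lines slope down to the right.

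The same pattern was looked for in the large subunit, whose genes are closest in kind. Of 132 listed 60S loci 84 were measured, of which 52 rose and 0 fell. Of all probe sets 10.4% were called higher and 10.3% lower. The median log2 fold change of the 60S genes was 0.55, the same to 2 decimals as that of the 40S genes. The smallest p-values in the 60S list were those of AT3G02190 (L39) at 1.47, AT2G37600 (L36) at 1.16 and AT3G06680 (L29) at 1.42. In the 60S list 59 of 75 paralog pairs had the larger log2 fold change on the dimmer probe set. Groups did not overlap in 42 of these pairs, of which 38 had the larger fold change on the dimmer and 4 on the brighter probe set. Across the 84 genes the Pearson r with the mean signal was -0.01 and the Spearman rho -0.44, beside -0.69 and -0.74 across the 40S genes. Without the dim AT5G09500 the 40S values were -0.85 and -0.75. The 60S list holds further dim probe sets, such as AT2G47570 (mean log2 signal 2.67, log2 fold change -1.34) and AT5G40040 (4.71 and 2.64). The 60S correlations were not computed without them, so the 2 lists are not compared on like ranges of signal.

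Further loci of the 40S subunit, outside the 60, were measured in 12 of 39 cases. Of these, 6 rose and 0 fell, against 10.4% of all probe sets called higher and 10.3% called lower. AT2G45710, of S27, had signals of 3301, 3182 and 3559 in lib and of 1376, 1267 and 1211 in the wild type, a log2 difference of 1.38 (SE 0.09, adjusted p = 0.000103). AT3G04230 (S16) rose by 1.02 (SE 0.10) and AT1G23410, which encodes S27a fused to ubiquitin, by 1.26 (SE 0.17). Of the 6 that did not pass, 5 had signals of at most 54.0 on every array. The other was the brighter AT2G21580 (S25), with signals of 2196, 2249 and 2058 in lib and of 2355, 1778 and 1675 in the wild type. Its groups overlapped, and it stood at 0.18 (adjusted p = 0.386).

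Most measured factors of ribosome assembly, which serve the large or the small subunit, were called higher in lib. Of the measured initiation factors, which act on the assembled subunit, none was called higher. Of 10 measured ribosome biogenesis factors, from a list of 32, 7 rose and 0 fell (median log2 fold change 0.50). AT3G15460 and AT1G52930, both homologs of Brx1, a yeast factor of large subunit assembly, rose by 1.48 (SE 0.14, adjusted p = 0.000247) and 0.80 (SE 0.08, adjusted p = 0.000356). AT3G05060, of the Nop58 type that forms the core of snoRNA particles guiding rRNA methylation, rose by 0.54 (SE 0.09). AT5G38720 (RRP7) rose by 0.72 (SE 0.19, adjusted p = 0.0255) and AT1G63780 (IMP4) by 0.46 (SE 0.13, adjusted p = 0.0404). Their calls were lost in 8 and 7 of the 14 alternative settings. AT3G09720 (RH57) stood at 0.67 and did not pass (adjusted p = 0.0564). DIM1A, which methylates 18S rRNA, stood at 0.03 (adjusted p = 0.871, with values of either sign, -0.016 to 0.077, over the settings) and AT5G41190, the Nob1 endonuclease of the last step of 18S rRNA maturation, at -0.13 (adjusted p = 0.469). DIM1A, AT5G41190, AT5G38720, AT1G63780 and AT3G09720 are named after their values were seen. Factors of the large and of the small subunit were not compared as groups. Over all probe sets 10.4% were called higher and 10.3% lower, so few calls would be seen among 11 genes at those shares. Of 11 measured translation initiation factors, from a list of 30, 8 had a positive value, 0 rose and 1 fell (median 0.11). That was AT1G36730, eIF5, which triggers GTP hydrolysis on the scanning 40S subunit, at -0.39 (SE 0.09, adjusted p = 0.0146, and 0.0718 without lib replicate 1). AT5G35680, an eIF1A, stood at 0.31 (adjusted p = 0.0570) and AT1G77840, the other eIF5 gene, at 0.22 (adjusted p = 0.176). Of the TOR and S6 kinase list, 2 of 10 genes were measured and neither passed: RAPTOR1 stood at -0.45 (adjusted p = 0.103) and RAPTOR2 at 0.53 (adjusted p = 0.276).

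The few measured nuclear genes listed for the small subunit of the plastid ribosome had lower values in lib. Of 11 listed nuclear genes 3 were measured, of which 2 fell and 0 rose, and all 3 had lib arrays below the wild type arrays. Over all probe sets 10.3% were called lower, and 20.2% had every lib array below every wild type array. AT5G24490, a homolog of bacterial hibernation factors, fell by 0.71 (SE 0.12, adjusted p = 0.00346), with signals of 1313, 1234 and 1495 in lib and of 2320, 2405 and 1898 in the wild type. AT1G64510 (plastid S6) fell by 0.47 (SE 0.10, adjusted p = 0.0113), and AT3G13120 (plastid S10) stood at -0.40 (adjusted p = 0.0922).

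**Figure D4:**
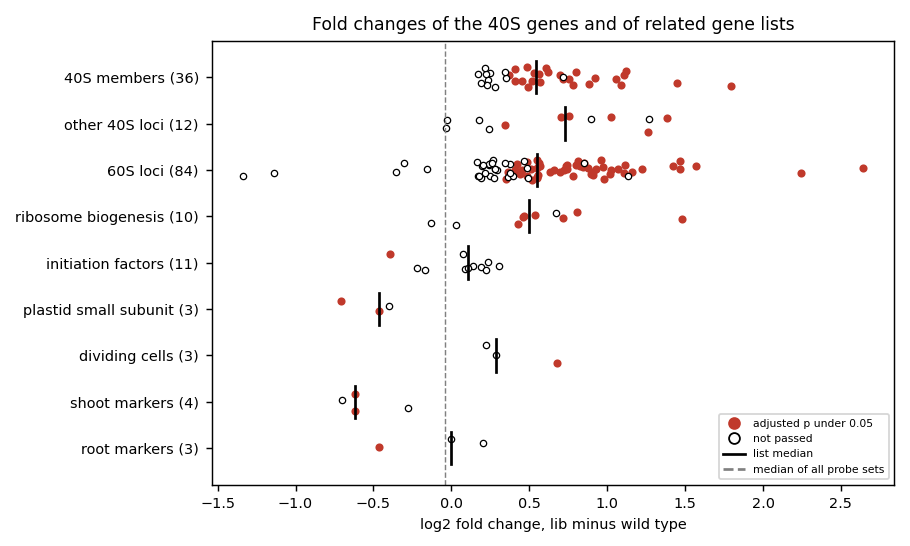
Points are the log2 fold changes (lib minus wild type) of the measured genes in each list, with the number of genes in brackets; filled points passed at an adjusted p under 0.05, the black bar is the list median and the dashed line the median of all probe sets, -0.043. All 36 40S genes lie to the right of 0, as do 79 of the 84 60S genes, while the 3 plastid genes lie to the left.

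Some tissue markers changed beside these groups, and most of the measured ones did not pass. Among all probe sets 10.4% were called higher and 10.3% lower. Of the 4 measured shoot markers from a list of 8, LHCB4.1 (-0.62, adjusted p = 0.0376) and RCA (-0.62, adjusted p = 0.0493) fell in lib, and PRK (-0.70) and SBPASE (-0.28) did not pass. Their summed signal was 1092 to 1492 on the lib arrays and 1658 to 2636 on the wild type arrays. Of the 3 measured root markers from a list of 8, PYK10 fell (-0.47, adjusted p = 0.0393), and EXPA7 (0.20) and EXPA18 (-0.0041, of a sign that turned with the scaling) did not pass. Their summed signal was 13542 to 15628 on the lib arrays and 17811 to 21898 on the wild type arrays. Most of that sum was PYK10 alone, with signals of 11846.7 to 14024.5 in lib and of 16373.4 to 20685.2 in the wild type. Of the 3 measured markers of dividing cells from a list of 10, AUR2 rose (0.68, adjusted p = 0.0186), and AUR1 (0.22) and PRL (0.28) did not pass, with a summed signal of 1191 to 1315 on the lib arrays and 872 to 1046 on the wild type arrays. The marker calls were lost in 7 of the 14 settings for LHCB4.1, in 11 for RCA, in 10 for PYK10 and in 6 for AUR2. No measured marker of these lists had a log2 signal of 0 on any array. The part of tissue or cell composition in the rise of the 40S transcripts was not tested.

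The authors' deposited table lists their own p-values and lib to wild type ratios for the same probe sets. In the authors' deposited table the ratio was above 1 for all 36 genes, and 26 of them had an unadjusted p under 0.05, against 11.7% of all probe sets with such a p and a ratio above 1. Of these 26 genes in the authors' deposited table, 23 were also called by limma. A p under 0.05 together with a ratio of at least 2 was given to 6 genes in the authors' deposited table, against 2.34% of all probe sets. The highest of these ratios in the authors' deposited table were 3.46 for AT5G59240 and 2.72 for AT4G30800.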

How the data were processed

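The deposited array values are log2 signals, used without further normalization. The submitters' processing notes name MAS5 for them, and its version is not given there. MAS5 scatters widely at low signals. A second deposited table holds the authors' p-value and their fold ratio per probe set; its test is not named in the sources used here.

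Probe sets were tied to loci through the platform annotation and the TAIR10.1 gene table (13436 probe sets, 13286 loci). Protein names follow the common naming of the Arabidopsis loci, since annotation and table give these genes mostly by locus. All 22746 probe sets were fitted with limma 3.58.1 in R 4.3.3 (lmFit, eBayes with an intensity trend, 2-sided, Benjamini-Hochberg adjustment over all probe sets), with 3 arrays per group, whose number limits the precision. Changes were called at an adjusted p under 0.05. The script was tested on simulated data. Paralog ratios were compared by an exact permutation test in SciPy 1.17.1. The brightest probe set of each locus was used; each member had only 1.

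The members, gene lists and tests were chosen with earlier results of these data known. Named were the 12 largest and 8 smallest values, the genes of 5 proteins with the widest mixed calls, 3 genes of smallest p in each other list and all markers; remaining members were named after their values were seen. Alternatives covered the error model, the scaling, a filter on dim probe sets, thresholds, a block and each array left out.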

Additional observations from a re-analysis of the deposited data

How the results depend on the processing

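The 14 alternatives were no intensity trend, quantile normalization, centring, log2(signal + 16), only probe sets above the median signal, a replicate block, array weights, an adjusted p under 0.01, and each of the 6 arrays left out. The 25 rises became 14 with no intensity trend, 6 with a 2-fold threshold, 16 at the threshold of 0.01, and 16 to 24 with an array left out, lowest without lib replicate 1; 0 genes fell in any setting. Same-numbered arrays did not deviate together (r of 0.05, -0.20 and -0.23), so no effect shared by a replicate number was seen. The labels do not say whether same-numbered samples were matched. With the replicate block 18 rose, at a median of 0.55. The median of 0.55 ranged from 0.47 to 0.60 with an array left out, and the count of 18 pairs from 17 to 18. Other choices of probe set per locus gave the values as reported, since each locus has 1 of the unshared type. Each value that changed sign had not passed. The difference of AT2G17360 and AT5G58420 ranged from -0.12 to 0.40 with an array left out, that of AT5G07090 and AT5G58420 from -0.19 to 0.027, and that of AT5G09500 and AT5G09510 from -0.14 to 0.13, and the last was -0.17 with log2(signal + 16). SBPASE ranged from -0.54 to 0.0056 with an array left out and EXPA18 from -0.14 to 0.16. EXPA18 was 0.0073 after centring, 0.0098 with quantile normalization and 0.0043 with array weights. The causes were not tested. The intensity trend and the array weights were added for the count of pairs after seeing the data.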
